A study of Homo sapiens with 18 samples.

Results

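Integrin and laminin chain genes were taken as the protein-coding genes of the count table whose symbols are ITGA with a number or with the letter D, E, L, M, V or X, ITGB1 to ITGB8, or LAMA, LAMB and LAMC with a number from 1 to 5. The rule uses the gene type and the symbol and no measured value. This gave 38 genes, 26 integrin chains and 12 laminin chains, of 58870 genes and of 19986 protein-coding genes in the table. RNA-seq had been done on total RNA of 3 human melanoma cell lines, WM164, SKMEL28 and A375. Each line had been transduced with a lentivirus expressing GFP, which served as the control, or MAFG, a small MAF transcription factor of the bZIP family, with 3 libraries in each of 6 conditions and 18 libraries in all. Both vectors drove their insert from the EF1α promoter and carried blasticidin resistance, MAFG was a Myc-DDK-tagged open reading frame, and all cells grew in RPMI with 5% serum. Every condition is a selected pool of cells of an established line, and nothing states that the 3 libraries came from separate cultures, so that p-values may measure technical spread only.

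Integrins are transmembrane receptors made of an alpha and a beta chain, and the pair decides which extracellular matrix protein or cell surface ligand is bound. ITGB1 pairs with many alpha chains, and ITGAV pairs with several beta chains. Laminins are secreted trimers of an alpha, a beta and a gamma chain, which polymerise into the scaffold of basement membranes and are themselves integrin ligands, and melanoma cells use both to attach, migrate and invade.

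To show regulatory sequence of integrin genes whose mRNA was called higher with MAFG in WM164 cells, the RefSeq promoters (GRCh38.p14) of ITGA1, ITGA10, ITGA11 and ITGA4 are given. No promoter was found for ITGA9, the other integrin gene called higher there. RefSeq promoter windows of 300 bases were found for 26 of the 38 genes, with 33 windows in all. That of ITGA1 runs from 250 bases before the gene's start to the 50 bases from the start on. Other windows, those of ITGA4 and ITGA10 among them, lie otherwise to the gene start given below. Some genes have more than 1 window. Capitals mark a match to a motif searched on both strands. These are the core of the MAF recognition element (TGCTGA), the antioxidant response element (TGACNNNGC, which can overlap the former), the AP-1 site (TGANTCA), the MITF E-box (CACGTG) and the M-box core (CATGTG). The windows follow, each in the direction of its gene.
ITGA1, chr5:52787666-52787965, plus strand: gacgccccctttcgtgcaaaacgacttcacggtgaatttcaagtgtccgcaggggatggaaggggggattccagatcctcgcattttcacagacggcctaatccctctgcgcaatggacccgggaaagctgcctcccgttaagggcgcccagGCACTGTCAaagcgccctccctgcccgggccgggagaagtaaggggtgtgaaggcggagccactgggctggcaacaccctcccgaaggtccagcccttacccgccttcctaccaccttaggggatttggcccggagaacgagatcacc
ITGA10, chr1:145910001-145910300, minus strand: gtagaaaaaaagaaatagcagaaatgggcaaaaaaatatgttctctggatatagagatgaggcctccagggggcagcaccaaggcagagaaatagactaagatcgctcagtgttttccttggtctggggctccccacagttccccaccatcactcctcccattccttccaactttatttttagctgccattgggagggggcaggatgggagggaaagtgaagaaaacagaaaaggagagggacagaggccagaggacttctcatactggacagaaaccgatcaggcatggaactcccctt
ITGA11, chr15:68432114-68432413, minus strand: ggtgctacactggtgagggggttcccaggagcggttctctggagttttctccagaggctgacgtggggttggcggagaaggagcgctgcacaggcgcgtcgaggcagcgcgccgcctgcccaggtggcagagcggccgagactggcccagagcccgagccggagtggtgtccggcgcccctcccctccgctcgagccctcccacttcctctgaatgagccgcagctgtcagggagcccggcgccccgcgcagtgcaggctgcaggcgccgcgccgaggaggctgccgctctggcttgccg
ITGA4, chr2:181457136-181457435, plus strand: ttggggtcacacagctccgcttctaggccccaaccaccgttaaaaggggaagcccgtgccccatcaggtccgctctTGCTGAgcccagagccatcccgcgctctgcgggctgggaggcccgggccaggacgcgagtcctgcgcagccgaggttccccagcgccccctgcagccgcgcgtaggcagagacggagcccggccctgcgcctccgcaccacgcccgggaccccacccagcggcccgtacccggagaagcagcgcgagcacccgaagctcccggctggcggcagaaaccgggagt
ITGA1 held 1 antioxidant response element match, ITGA4 held 1 MAF core match, and the windows of ITGA10 and ITGA11 held none of the searched letters. The MAF core was found in 2 of the 33 windows (6.06%, those of ITGA4 and LAMC1) and in 17.3% of all 35116 RefSeq promoter windows. The antioxidant response element was found in 4 of the 33 windows (12.1%) against 13.3% of all, the AP-1 site in 3 against 7.71%, the E-box in 1 against 7.26% and the M-box core in 4 against 11.1%. A match is a description of letters and not a bound site.

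Total counts per library ranged from 20122172 to 39025042, with a median of 31061375. MAFG mRNA rose in WM164 (log2 fold change 1.04) and SKMEL28 cells (0.64), and its 0.80 in A375 cells missed the threshold (adjusted p = 0.0655, edgeR quasi-likelihood test with Benjamini-Hochberg adjustment), although the A375 libraries did not overlap, with 26.3, 27.3 and 36.5 CPM with GFP and 60.3, 53.8 and 42.8 CPM with MAFG. The replicate libraries differed by more than sampling noise (mean chi-square per gene, near 1 under counting noise alone, 5.90 to 96.7 over 18 pairs), and the highest values were those of A375 MAFG replicate 1 against replicates 2 and 3 (68.7 and 96.7). A375 results are therefore also given without that library. In TPM, MAFG went from 2.5 to 3.51 with GFP to 20.9 to 27.5 with MAFG in WM164 cells, from 3.23 to 4.43 to 14.1 to 19.4 in SKMEL28 and from 3.94 to 4.52 to 22.4 to 28.2 in A375 cells. Of 8 melanocytic markers, DCT, MLANA and TYR were at 0 TPM in every A375 library, while all 3 were expressed in WM164 and SKMEL28 cells. The summed level of the 8 markers went from 1016 to 1386 TPM with GFP to 739 to 837 TPM with MAFG in WM164, from 2027 to 2187 to 1612 to 1804 TPM in SKMEL28 and from 12.2 to 13.1 to 37.0 to 48.6 TPM in A375 cells. In WM164 cells 4 of 7 tested markers were called lower, among them MLANA (log2 fold change -2.41), DCT (-1.64) and PMEL (-1.46), none was called in SKMEL28 cells, and SOX10 was the 1 called, higher, in A375 cells. Their part in the results below was not tested. CD3E, a marker of T cells, had 0 counts in all libraries, PTPRC, the pan-leukocyte marker, had at most 1 count, and the 4 platelet markers summed to at most 0.02 TPM.

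Of the 38 genes, the filter for low counts left 29 to be tested in WM164 cells, 26 in SKMEL28 cells and 28 in A375 cells, or 30 in at least 1 line. The 8 others were near absent in all conditions. Of these, ITGB2 reached 15 counts in its highest library, ITGAM 11, ITGB6 9, ITGA2B 8 and ITGA8 6, and ITGAD, ITGAL and LAMB4 reached 3. A gene was called when its adjusted p, over all genes tested in that line, was 0.05 or less and its fold change was above 2. WM164 cells had 6 calls among 29 genes (5 higher, 1 lower), where 6.94% of all 15919 tested genes were called (4.94% higher and 2% lower). In SKMEL28 cells, 2 of 26 were called, both lower, where 4.74% of all 15523 genes were (1.76% higher and 2.98% lower). In A375 cells, 3 of 28 were called, all higher, where 0.665% of all 15779 genes were (0.646% higher and 0.0190% lower). Without A375 MAFG replicate 1 it was again 3, all higher, where 0.935% of 16368 genes were called. Without the fold limit, 15 genes passed higher and 4 lower in WM164 (31.8% of all genes passed, 16.2% higher and 15.6% lower), 7 higher and 9 lower in SKMEL28 (29.9%, 14.6% and 15.3%), and 4 higher and 0 lower in A375 cells (0.843%, 0.780% and 0.0634%). Without A375 MAFG replicate 1, 5 passed higher and 0 lower, and 2.4% of all genes passed. All the integrin and laminin genes that passed had libraries of the 2 conditions that did not overlap. Passing the test itself favours such genes, so that this adds no evidence. Of all genes tested, passed or not, 43.4% did not overlap for WM164 cells, 43.0% for SKMEL28 cells and 12.8% for A375 cells. These shares are no like base for genes that passed. The median log2 fold change of the tested integrins and laminins was 0.23 for WM164 cells, -0.19 for SKMEL28 cells and 0.28 for A375 cells, while the median of all tested genes lay within 0.01 of 0 in each line. In such bulk RNA, fewer expressing cells and less RNA per cell cannot be told apart.

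**Figure D1:**
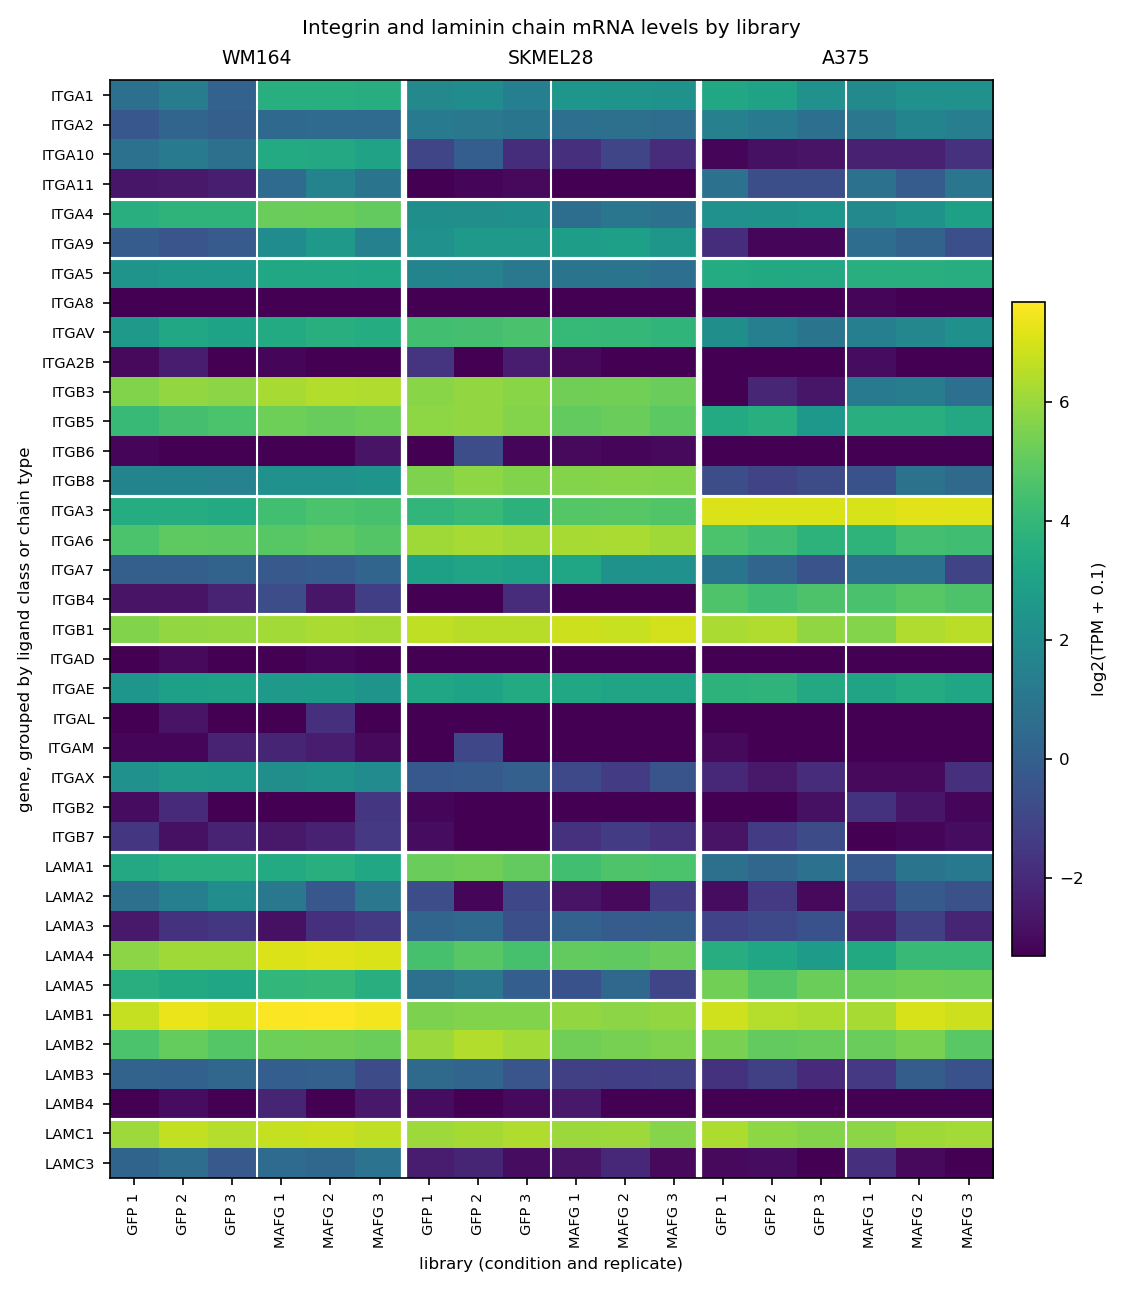
Levels of integrin and laminin genes (rows, grouped by ligand class or chain type) in the 18 libraries (columns) as log2(TPM + 0.1), in colour. ITGB1, LAMB1 and LAMC1 are high in every library, ITGB4 is high only in the A375 columns, and the ITGA1, ITGA10, ITGA11 and ITGA9 rows brighten between the GFP and MAFG columns of WM164.

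The alpha chains that bind collagen had the highest median log2 fold change of the chain classes in WM164 cells. ITGA1, ITGA2, ITGA10 and ITGA11 each pair with ITGB1 and make up this class, and all 4 passed the test higher with MAFG in WM164 cells, 3 of them with a fold change above 2 (median log2 fold change 2.51). Of all genes tested in WM164 cells, 16.2% passed higher and 4.94% were called higher. A median of 4 genes is a rough value. ITGA1 (chromosome 5, 52787916 to 52959209) had 13.05, 13.7 and 12.02 CPM with GFP and 93.1, 86.8 and 87.8 CPM with MAFG in WM164 cells. Its groups were far apart, with a log2 fold change of 2.78 (SE 0.07, adjusted p = 8.5e-15). In SKMEL28 cells it had 24.2, 24.1 and 22.2 CPM with GFP and 37.2, 38.6 and 35.5 CPM with MAFG, a log2 fold change of 0.66 (SE 0.08, adjusted p = 1.05e-05), so that it passed the test below the fold limit. A375 cells had 64.8, 56.5 and 53.4 CPM of ITGA1 with GFP and 26.8, 51.7 and 49.8 CPM with MAFG. There the MAFG libraries lay below the GFP libraries, by far the lowest being replicate 1, and the change missed the threshold (-0.45, SE 0.215, adjusted p = 0.849). Without that library it was -0.20 (adjusted p = 0.36). The exons of ITGA1 overlap those of PELO, which lies within it on the same strand, and PELO had a smaller rise in WM164 cells (0.56, SE 0.10) and none that passed in SKMEL28 cells (0.14, SE 0.09).

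ITGA11, the chain of a fibrillar collagen receptor typical of mesenchymal cells (chromosome 15, 68296532 to 68432163), gave the largest log2 fold change of the 29 genes tested in WM164 cells. It had 1.22, 1.19 and 1.08 CPM with GFP and 15.1, 14.9 and 15.9 CPM with MAFG in WM164 cells, where the log2 fold change was 3.71 (SE 0.15, adjusted p = 1.68e-12). SKMEL28 cells had 0, 2 and 7 counts with GFP and 0 in all 3 MAFG libraries, so that ITGA11 was at or near the floor and not tested there. A375 cells expressed it in both conditions, at 8.18, 7.41 and 8.89 CPM with GFP and 9.99, 11.5 and 8.72 CPM with MAFG, with overlapping groups and a log2 fold change of 0.30 (SE 0.17, adjusted p = 0.932). ITGA10 (chromosome 1, 145891208 to 145910111), the chain of a collagen receptor of cartilage, had 10.7, 9.73 and 9.03 CPM with GFP and 48.8, 47.8 and 42.9 CPM with MAFG in WM164 cells. Its log2 fold change was 2.24 (SE 0.09, adjusted p = 2.53e-12). It was under 2 CPM in all SKMEL28 and A375 libraries, and its change there passed in neither line (-0.71, SE 0.43, and 1.39, SE 0.80). ITGA2, the other widely expressed collagen receptor chain, moved least in WM164 cells (0.37, SE 0.10, adjusted p = 0.00941), and its values of -0.25 in SKMEL28 and 0.33 in A375 cells did not pass.

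ITGA4 and ITGA9 are related alpha chains that bind VCAM1 and fibronectin or tenascin and osteopontin. In WM164 cells both were called higher. ITGA4 (chromosome 2, 181457202 to 181538940) had 92.2, 90.4 and 92.8 CPM with GFP and 201, 215 and 213 CPM with MAFG, a log2 fold change of 1.19 (SE 0.05, adjusted p = 1.03e-11). In SKMEL28 cells it went the other way, from 26.5, 28.2 and 26.8 CPM to 12.2, 13.3 and 14.2 CPM, a log2 fold change of -1.04 (SE 0.09, adjusted p = 5.41e-07). Without SKMEL28 MAFG replicate 1 this value was -0.97, under the fold limit. In A375 cells ITGA4 did not pass (0.30, SE 0.18, adjusted p = 0.970), and without A375 MAFG replicate 1 it was at 0.48, just past the threshold (adjusted p = 0.0499). CERKL, whose exons overlap ITGA4 on the opposite strand, had at most 12 counts in a WM164 library and 0 in SKMEL28 cells.

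ITGA9 (chromosome 3, 37452115 to 37823507) had 5.44, 7.44 and 5.49 CPM with GFP and 32.4, 34.4 and 32.2 CPM with MAFG in WM164 cells, or a log2 fold change of 2.42 (SE 0.11, adjusted p = 1.38e-11). In A375 cells it was nearly absent with GFP, at 3, 1 and 6 counts, and had 241, 221 and 244 counts with MAFG, or 6.52, 6.58 and 6.41 CPM. The A375 log2 fold change of 5.97 (SE 0.43, adjusted p = 6.43e-05) rests on these few GFP counts, and without A375 MAFG replicate 1 it was also 5.97. SKMEL28 cells had the highest ITGA9 level of the 3 lines with GFP (5.67 TPM ± 0.87, SD, n = 3, against 0.76 TPM ± 0.09 in WM164), and their change did not pass (0.17, SE 0.08, adjusted p = 0.133). ITGA9-AS1, a noncoding gene on the opposite strand, had at most 39 counts in WM164 and 17 in A375 libraries. ITGA4 and ITGA9 both pair with ITGB1. ITGB1, the shared beta chain, passed the test higher in WM164 (0.22, SE 0.05, adjusted p = 0.00439) and SKMEL28 cells (0.39, SE 0.06, adjusted p = 2.32e-04), and was at 0.11 (SE 0.13, adjusted p = 0.997) in A375 cells.

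**Figure D2:**
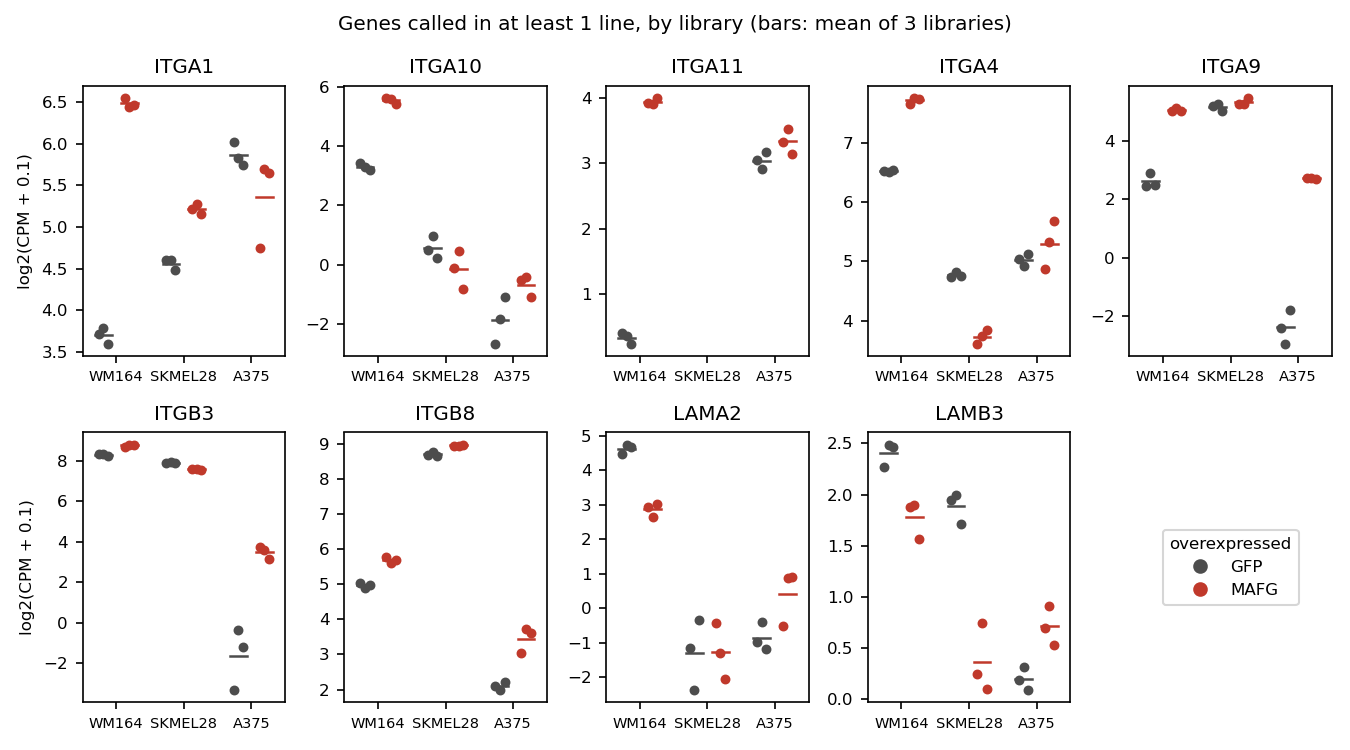
Level of the 9 genes called in at least 1 line in each library, as log2(CPM + 0.1) with CPM scaled within each line, in GFP (grey) and MAFG (red) cells. Points are libraries and bars are means of 3, each panel has its own vertical range, and ITGA11 of SKMEL28 is left out as it was not tested. ITGA1, ITGA10, ITGA11, ITGA4 and ITGA9 are raised in WM164, and ITGA9 and ITGB3 lie lowest in the A375 GFP libraries.

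Another class forms receptors for the RGD motif of fibronectin, vitronectin and latent TGF-beta. Of its 8 chains, 5 were tested in each line, and without the fold limit 4 rose in WM164 cells, 1 rose and 3 fell in SKMEL28 cells and 2 rose in A375 cells. Of all genes, 16.2% rose in WM164 cells, 14.6% rose and 15.3% fell in SKMEL28 cells and 0.780% rose in A375 cells by this rule. ITGB3 (chromosome 17, 47253827 to 47313743), the beta chain of the vitronectin receptor long used as a marker of invasive melanoma, had 0, 23 and 11 counts with GFP and 485, 403 and 335 counts with MAFG in A375 cells. In CPM these were 0, 0.693 and 0.342 against 13.1, 11.99 and 8.80, all MAFG libraries lying above all GFP libraries, with a log2 fold change of 5.03 (SE 0.60, adjusted p = 0.0026). Without A375 MAFG replicate 1 the value was 4.91. The A375 level with MAFG (2.07 TPM ± 0.48) was still far under that of GFP cells of WM164 (54.0 TPM ± 5.6) and SKMEL28 (54.6 TPM ± 3.8), where ITGB3 changed by 0.45 (SE 0.05, adjusted p = 2.89e-06) and -0.32 (SE 0.05, adjusted p = 3.66e-04). A readthrough gene that shares exons with ITGB3 on the same strand had 0 to 27 counts in A375 libraries with GFP and 0 to 142 with MAFG.

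Beside ITGA9 and ITGB3, SOX10, a neural crest and melanocyte transcription factor, went from 2.24 to 3.22 TPM with GFP to 29.3 to 34.0 TPM with MAFG in A375 cells (log2 fold change 3.68, adjusted p = 2.12e-05), while DCT, MLANA and TYR stayed at 0 TPM. Both WM164 and SKMEL28 cells had over 200 TPM of SOX10 in all conditions. What part SOX10 had in the A375 changes was not tested.

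ITGB8 (chromosome 7, 20330702 to 20415754), which pairs with ITGAV to activate latent TGF-beta, rose in all 3 lines. In A375 cells it had 4.16, 3.85 and 4.51 CPM with GFP and 8.12, 13.0 and 12.01 CPM with MAFG, with separate groups and a log2 fold change of 1.40 (SE 0.21, adjusted p = 0.0112). This call held without A375 MAFG replicate 1 (1.58) or replicate 3, and was lost when any 1 A375 GFP library or A375 MAFG replicate 2 was left out, with values from 1.27 to 1.46. WM164 cells had 33.0, 29.5 and 31.5 CPM with GFP and 54.6, 48.6 and 51.6 CPM with MAFG (0.72, SE 0.07, adjusted p = 5.72e-07). In SKMEL28 cells, which had by far the highest level, the rise was small (413, 434 and 405 against 493, 494 and 502 CPM, log2 fold change 0.25, SE 0.05, adjusted p = 0.0022), and on the TPM scales it was 0.02 and did not pass. ITGB5, another partner of ITGAV, rose in WM164 cells (79.6, 73.0 and 74.2 against 122, 120 and 109 CPM, 0.63, SE 0.06, adjusted p = 3.09e-07) and fell in SKMEL28 cells (137, 130 and 126 against 84.5, 84.3 and 88.2 CPM, -0.62, SE 0.06, adjusted p = 1.03e-06). ITGAV itself, their common alpha chain, did not pass in WM164 cells (-0.00, SE 0.06), fell in SKMEL28 cells (-0.29, SE 0.05, adjusted p = 7.1e-04) and did not pass in A375 cells (0.37, SE 0.14, adjusted p = 0.608). ITGA5, the alpha chain of the fibronectin receptor, rose in WM164 cells (0.56, SE 0.07, adjusted p = 5.76e-06) and was at -0.33 in SKMEL28 and 0.31 in A375 cells, neither of which passed. The libraries of ITGAV in SKMEL28 cells (144, 143 and 143 against 120, 118 and 113 CPM) and of ITGA5 in WM164 cells (37.6, 33.4 and 37.6 against 53.6, 53.6 and 53.2 CPM) did not overlap.

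Of the 4 laminin-binding chains, 1 passed the test in WM164 cells, 2 of 3 tested passed in SKMEL28 cells and 0 in A375 cells, and none was called. Of all genes, 31.8%, 29.9% and 0.843% passed in these lines. ITGA3, which pairs with ITGB1, rose in WM164 cells from 52.98, 47.3 and 47.7 CPM to 78.1, 79.1 and 81.0 CPM (0.69, SE 0.06, adjusted p = 1.63e-07) and in SKMEL28 cells from 42.8, 42.4 and 36.2 CPM to 81.8, 77.96 and 76.2 CPM (0.96, SE 0.07, adjusted p = 8.36e-08). The SKMEL28 rise lay just under the fold limit. In A375 cells, ITGA3 had 136 TPM ± 4 with GFP and 139 TPM ± 7 with MAFG and no change that passed. ITGA6 rose slightly in SKMEL28 cells (0.23, SE 0.05, adjusted p = 0.00451) and was just over the threshold in WM164 cells (-0.13, SE 0.05, adjusted p = 0.0513). ITGA7, a laminin receptor chain known from muscle, passed in no line. ITGB4, the beta chain of hemidesmosomes, was a feature of A375 cells, at 25.2, 19.9 and 24.4 TPM with GFP, and its change there did not pass (0.40, SE 0.13, adjusted p = 0.422).

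Of 7 chains known from leukocytes, 4 were not tested in any line and none was called in a line. ITGAX, a chain of a myeloid complement receptor, fell in WM164 cells from 33.5, 34.1 and 31.7 CPM to 21.2, 20.9 and 19.5 CPM (-0.69, SE 0.08, adjusted p = 2.16e-06), and its values in SKMEL28 (-0.84, SE 0.34, adjusted p = 0.0717) and A375 cells (-1.42, SE 0.75, adjusted p = 0.914) did not pass. ITGB2, its only beta partner, had at most 15 counts in a library. ITGAE, whose exons overlap those of HASPIN on the opposite strand, had means of 6.77 to 12.7 TPM in GFP cells of the 3 lines and passed in none, while ITGB7, its beta partner, had at most 14 counts in any library.

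**Figure D3:**
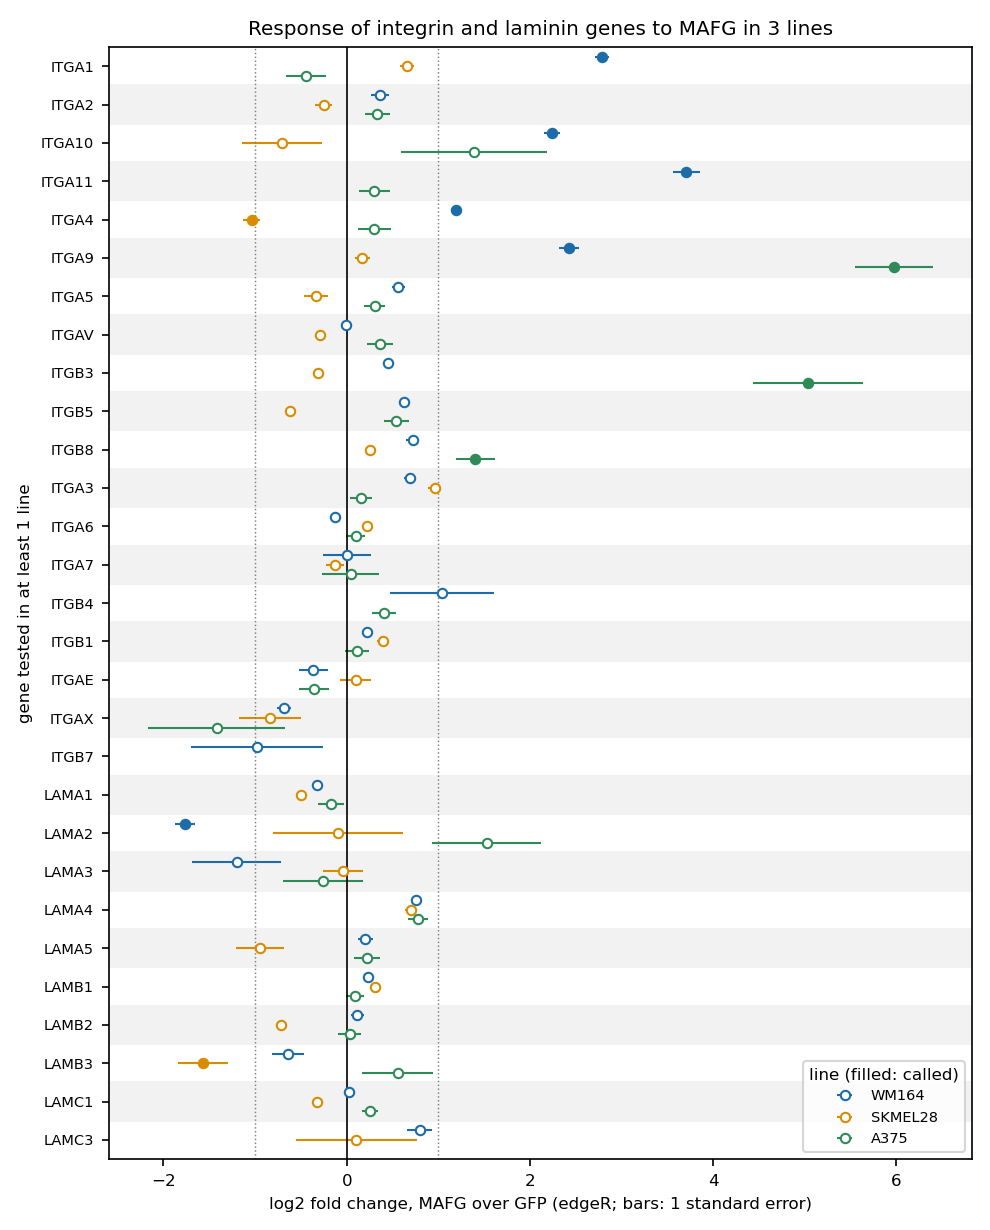
Log2 fold change of MAFG over GFP (horizontal axis; bars are 1 standard error) for genes tested in at least 1 line, in WM164 (blue), SKMEL28 (orange) and A375 (green), with filled points for called genes and dotted lines at a fold change of 2. The collagen-binding chains ITGA1, ITGA10 and ITGA11 lie far to the right in WM164 and are filled in that line alone. The open A375 point of ITGA10 also lies to the right, with a long bar. ITGA4 is filled on both sides of 0, and the 3 points of LAMA4 lie close together.

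Among the laminins, LAMA4 passed the test higher in all 3 lines, by 0.70 to 0.77 on the log2 scale of the counts. LAMA4 is the alpha chain of laminins in vessel walls and mesenchymal cells. It had 286, 314 and 286 CPM with GFP and 516, 502 and 482 CPM with MAFG in WM164 cells, or a log2 fold change of 0.76 (SE 0.06, adjusted p = 6.07e-09). In SKMEL28 cells 84.8, 93.3 and 81.6 CPM with GFP stood against 135, 138 and 148 CPM with MAFG (0.70, SE 0.06, adjusted p = 8.54e-07). In A375 cells 43.2, 39.8 and 41.9 CPM stood against 67.0, 79.1 and 67.6 CPM (0.77, SE 0.11, adjusted p = 0.00867), and without A375 MAFG replicate 1 the value was 0.82. The 3 fold changes differed from each other by at most 0.08 on the log2 scale, and none of these differences passed a test (adjusted p of 0.753 or more). The 95% interval of a single fold change spans 0.56 to 0.99 in A375 cells. The TPM values were less even, with means of 64.4 and 139.7 TPM in WM164, 24.5 and 33.4 TPM in SKMEL28 and 8.96 and 14.9 TPM in A375 cells with GFP and MAFG, and on both TPM scales LAMA4 was called in WM164 cells and in neither other line. Besides ITGB8, no other gene of the 25 tested in all 3 lines passed the test in the same direction in each.

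LAMA1, an alpha chain of early basement membranes, fell in WM164 (119, 124 and 117 against 96.4, 101 and 90.6 CPM, log2 fold change -0.32, SE 0.06, adjusted p = 2.98e-04) and SKMEL28 cells (259, 281 and 262 against 181, 192 and 195 CPM, -0.50, SE 0.06, adjusted p = 8.63e-06). LAMA2 (chromosome 6, 128883138 to 129516566), the alpha chain of muscle and nerve basement membranes, was the 1 gene called lower in WM164 cells. It had 21.98, 26.5 and 25.4 CPM with GFP and 7.61, 6.15 and 7.95 CPM with MAFG, a log2 fold change of -1.76 (SE 0.11, adjusted p = 1.14e-09). With TPM in place of counts its change was -0.55 after adding 1 TPM and -0.82 after adding 0.1 TPM before the log2, and was not called, and the TPM of its libraries overlapped (1.56, 2.61 and 4.08 with GFP, 2.01, 0.69 and 1.95 with MAFG). In SKMEL28 cells it had 2 to 21 counts and no direction that held, and in A375 cells 11 to 67 counts and a log2 fold change of 1.53 (SE 0.59, adjusted p = 0.637). LAMA5, the alpha chain of most adult epithelia, fell in SKMEL28 cells from 5.76, 7.85 and 4.47 CPM to 2.68, 4.45 and 2.19 CPM (-0.95, SE 0.26, adjusted p = 0.0115), with the highest MAFG library just under the lowest GFP library. Without GFP replicate 3 or MAFG replicate 2 the value was -1.12 or -1.29 and was called. Its exons overlap those of ADRM1 on the opposite strand, which had no change that passed in SKMEL28 cells (-0.04, SE 0.07).

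LAMB3 (chromosome 1, 209614870 to 209652425), a chain of the epithelial laminin of hemidesmosomes, was called lower in SKMEL28 cells. It had 3.76, 3.88 and 3.18 CPM with GFP and 1.09, 1.57 and 0.969 CPM with MAFG, a log2 fold change of -1.57 (SE 0.27, adjusted p = 3.58e-04) in separate groups. It also fell in WM164 cells (-0.64, SE 0.18, adjusted p = 0.00967), and in A375 cells its 0.56 (SE 0.39) did not pass. LAMA3, its alpha partner, passed in no line. LAMB1, the widespread beta chain, rose in WM164 (0.23, SE 0.05, adjusted p = 0.0028) and SKMEL28 cells (0.31, SE 0.06, adjusted p = 6.66e-04). The exons of LAMB1 overlap those of DLD on the opposite strand. DLD did not pass in WM164 cells (-0.06, SE 0.06) and rose in SKMEL28 cells (0.26, SE 0.07, adjusted p = 0.0119). As the use of strand in counting is not stated, the LAMB1 values are uncertain, and the part of the overlap was not tested. LAMB2, the beta chain of synapses and the kidney filter, fell in SKMEL28 cells from 135, 146 and 133 CPM to 79.8, 86.3 and 85.3 CPM (-0.72, SE 0.06, adjusted p = 3.57e-07) and did not pass in WM164 (0.11, SE 0.07) or A375 cells (0.03, SE 0.12). LAMC1, the common gamma chain, fell in SKMEL28 cells (-0.32, SE 0.05, adjusted p = 2.31e-04), and LAMC3 rose in WM164 cells (0.80, SE 0.14, adjusted p = 2.17e-04) from a mean of 1.08 TPM.

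These changes altered the make-up of laminin mRNA. In SKMEL28 cells LAMA1 made up 57.01% ± 1.47 of the summed TPM of laminin alpha chains with GFP and 39.7% ± 2.5 with MAFG (SD, n = 3), and LAMA4 went from 38.7% ± 1.7 to 57.4% ± 2.7. The libraries of the 2 conditions did not overlap, LAMA1 holding 55.3% to 58.1% against 37.5% to 42.3%. In TPM, the leading alpha chain of SKMEL28 cells therefore changed from LAMA1 to LAMA4. Their leading beta chain in TPM changed from LAMB2 (60.4% ± 2.9 to 42.6% ± 2.7) to LAMB1 (38.7% ± 2.8 to 57.1% ± 2.6). In CPM, which are not scaled to transcript length, the leading chains did not change. With MAFG, LAMA1 still lay above LAMA4 in SKMEL28 cells (means of 189 and 140 CPM). LAMB1 lay above LAMB2 there already with GFP (means of 155 and 138 CPM). WM164 cells had LAMA4 as the leading alpha chain in both conditions (72.2% ± 1.6 with GFP, 83.8% ± 0.9 with MAFG), and LAMA1 went from 12.7% ± 0.2 to 6.38% ± 0.38. A375 cells had LAMA5 in the lead (75.7% ± 4.6 and 69.8% ± 6.1), in overlapping ranges. LAMC1 held over 98% of the gamma chains in each condition. Among integrin beta chains, ITGB1 went from 37.0% ± 2.4 to 48.4% ± 2.9 in SKMEL28 cells while ITGB5 went from 21.8% ± 0.9 to 13.9% ± 1.4. With 3 libraries against 3, an exact two-sided permutation test of a share cannot give a p under 0.1, and none was run.

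**Figure D4:**
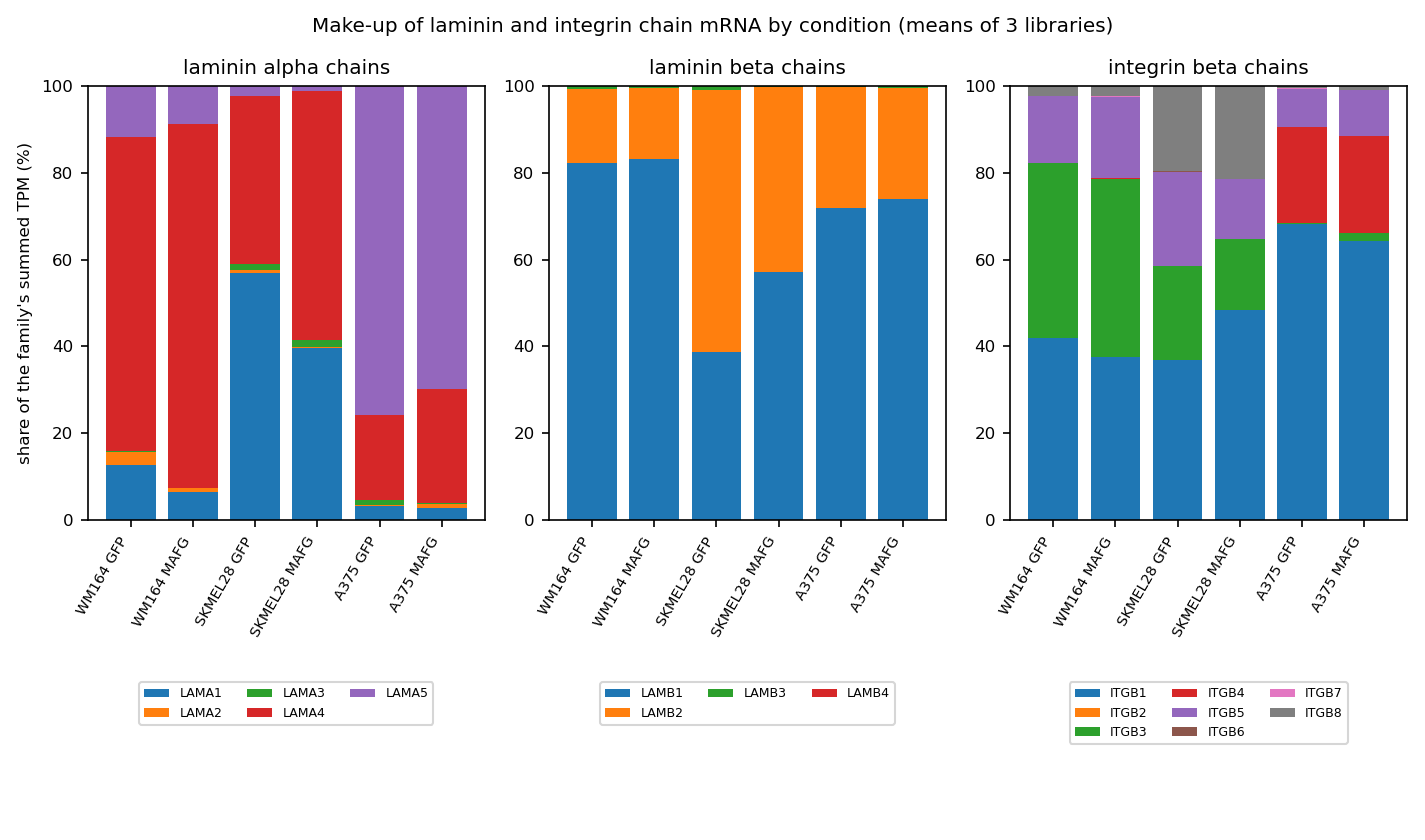
Share of each chain in the summed TPM of laminin alpha, laminin beta and integrin beta chains (percent, means of 3 libraries) in the 6 conditions. LAMA4 leads the alpha chains of WM164, LAMA5 those of A375, and the bars of SKMEL28 change from LAMA1 and LAMB2 to LAMA4 and LAMB1 with MAFG.

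The direction of change was compared between WM164 and SKMEL28 cells. Of 26 genes tested in both, 11 passed the test in both without the fold limit. ITGA1, ITGA3, ITGB1, ITGB8, LAMA4 and LAMB1 were higher in both lines, LAMA1 and LAMB3 were lower in both, and ITGA4, ITGB3 and ITGB5 were higher in WM164 and lower in SKMEL28 cells. Of all 14357 genes tested in both lines, 1880 passed in both, and 645 of these (34.3%) had opposite directions. The difference of the log2 fold changes was tested in 1 model of all 18 libraries, in which 30 of the 38 genes were tested and every pair of lines shares a line with another pair. Between WM164 and SKMEL28, 7 of the 30 were called, all with the more positive value in WM164 cells (5.10% of all 18767 genes called, 3.59% in this direction and 1.51% in the other). These were ITGA1, ITGA4, ITGA9, ITGA10, ITGA11, ITGB5 and LAMA5, of which the difference for ITGA4 was 2.23 (SE 0.17, adjusted p = 1.84e-08). Between WM164 and A375, 6 were called, 2 with the more positive value in WM164 and 4 in A375 cells (4.39% of all genes called, 2.21% and 2.17%). Between SKMEL28 and A375, 11 were called, 2 with the more positive value in SKMEL28 and 9 in A375 cells (4.20% of all called, 1.11% and 3.09%). Without the fold limit, 14 were called between WM164 and SKMEL28 and 17 between SKMEL28 and A375 (13.7% and 9.51% of all genes). Differences that involve ITGA11 in SKMEL28 cells, or ITGB7, rest on libraries of 0 to 14 counts, and their fitted size depends on the prior count.

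GFP cells of the 3 lines differed in most of these genes, as they did in many others. Between GFP cells of A375 and WM164, 20 of the 30 tested genes were called, 6 higher and 14 lower in A375 (46.7% of all 18767 genes called, 20.6% higher and 26% lower). Between A375 and SKMEL28, 22 were called, 7 higher and 15 lower in A375 (43.8%, 19.4% and 24.4%), and between WM164 and SKMEL28, 18 were called, 12 higher and 6 lower in WM164 (28.7%, 15.2% and 13.5%). The 3 comparisons share their GFP libraries. A375 cells stood out with ITGA3, ITGB4 and LAMA5, which were high, and ITGB3, ITGA9 and ITGB8, which were low. ITGA3 was at 136 TPM ± 4 in A375 cells, 15.4 TPM ± 2.2 in SKMEL28 and 10.9 TPM ± 0.4 in WM164 cells, and A375 exceeded WM164 by 2.93 (SE 0.11, adjusted p = 1.7e-15) on the log2 scale. ITGB4 was at 23.2 TPM ± 2.9 in A375 cells, while GFP libraries of WM164 had 6, 13 and 8 counts and those of SKMEL28 0, 0 and 3 counts of it. LAMA5 was at 34.6 TPM ± 6.9 in A375, 10.4 TPM ± 1.4 in WM164 and 1.47 TPM ± 0.55 in SKMEL28 cells.

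SKMEL28 cells had the most ITGB8 (49.9 TPM ± 4.9, against 3.003 TPM ± 0.107 in WM164 and 0.45 TPM ± 0.06 in A375), the most ITGA6 (71.2 TPM ± 3.2, against 28.1 TPM ± 4.0 and 19.1 TPM ± 4.8) and the most LAMA1 (36.0 TPM ± 3.0, against 11.3 TPM ± 1.3 and 1.45 TPM ± 0.27). WM164 cells had the most LAMA4 (64.4 TPM ± 8.1, against 24.5 TPM ± 3.3 in SKMEL28 and 8.96 TPM ± 2.501 in A375). The level of ITGB1, the common partner, differed by less than the fold limit in each of the 3 comparisons, with 56.5 TPM in WM164, 72.8 TPM in A375 and 93.7 TPM in SKMEL28 cells.

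Other genes of integrin and laminin biology were read from lists that hold none of the 38 genes. The lists were chosen with earlier results of these data known. Their counts of called genes, here and in the next paragraph, are therefore descriptive and no evidence of an excess over all genes. Of 11 tested extracellular integrin ligands in WM164 cells, 4 were called higher (4.94% of all genes were), among them CCN2 (1.70, SE 0.08, adjusted p = 8.75e-12), SPP1, which encodes osteopontin (1.21, SE 0.11, adjusted p = 1.04e-07), and CCN3 (1.12, SE 0.14, adjusted p = 4.46e-06). In SKMEL28 cells 4 of 16 were called higher (1.76% of all genes), CCN1 (1.87, SE 0.16) and CCN3 (1.14, SE 0.07) among them, and FBLN5, an elastic fibre protein, was called lower (-3.21, SE 0.21, adjusted p = 1.44e-08). In A375 cells 4 of 16 were called higher (0.646% of all genes), among them SPP1 (5.03, SE 0.28, adjusted p = 2.12e-05), the tenascin gene TNC (1.88, SE 0.11) and the fibronectin gene FN1 (1.17, SE 0.12). TNC, SPP1 and FN1 encode ligands that ITGA9, ITGB3 or ITGA4 receptors are known to bind.

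Of the basement membrane partners of laminin and the laminin receptors that are no integrins, 5 of 14 tested were called higher in WM164, 6 of 15 in SKMEL28 and 1 of 19 in A375 cells, with none called lower, where 4.94%, 1.76% and 0.646% of all genes were called higher. FREM2, an extracellular protein of epithelial basement membranes, was called in all 3 lines (1.58, SE 0.08, 1.73, SE 0.20, and 1.07, SE 0.19). The type IV collagen genes COL4A1 (1.60, SE 0.17, and 3.35, SE 0.66) and COL4A2 (5.24, SE 0.79, and 2.62, SE 0.29) were called in WM164 and SKMEL28 cells. The SE of 0.66 and 0.79, like those of FERMT1 and SRC below, leave the size of the change imprecise. Levels of these genes are not given, so that low expression may lie behind the larger values. Of 19 tested integrin activators and actin linkers, 2 were called higher in WM164 cells, ZYX, a focal adhesion protein (1.70, SE 0.06), and FERMT1, a kindlin that activates integrins (4.20, SE 0.63), and none was called in the other lines. Without the fold limit, 7 of them passed higher and 3 lower in WM164, and 1 higher and 7 lower of 17 tested in SKMEL28 cells, where 16.2% and 15.6% of all genes passed higher and lower in WM164 and 14.6% and 15.3% in SKMEL28 cells. Of 21 tested signalling kinases and adaptors, SRC, a kinase of focal adhesions, was the only one called, higher in WM164 cells (2.498, SE 0.492, adjusted p = 7.27e-04). It lay at -0.95 (SE 0.09, adjusted p = 6.8e-07) in SKMEL28 cells. Of the 10 tested tetraspanins and lateral partners, none was called in any line. Without the fold limit, 1 passed higher and 5 lower in SKMEL28 cells. Medians of the 5 lists ranged from -0.24 to 0.81 on the log2 scale, the ligands in WM164 cells having the highest and the tetraspanins in SKMEL28 cells the lowest.

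Markers of other cell types gave these values. The keratinocyte list was carried by KRT10 alone (its sum ranged from 6.06 to 65.9 TPM over all libraries, with KRT1 at 0 counts), the leukocyte list by CD68 (sum 27.1 to 258 TPM, CD68 itself called lower in WM164 cells at -1.24), and endothelial markers summed to at most 0.60 TPM. Fibroblast markers summed to 2.13 to 12.7 TPM, and 2 of 4 tested, PDGFRB (3.05, SE 0.46) and COL1A2 (2.05, SE 0.67), were called higher in WM164 cells with MAFG, at no more than 0.55 TPM in a library. LUM, the most abundant of the list there, fell (5.28 to 3.98 TPM in the mean, log2 fold change -0.997, SE 0.098, adjusted p = 3.42e-07), and DCN had at most 14 counts and was not tested. COL1A1 stayed at 0.28 TPM or less there. The part of any of these in the integrin and laminin values was not tested.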

How the data were processed

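Counts and TPM were read for 18 libraries. Per the labels and the methods, cutadapt 1.8.1 was used by the authors for trimming and STAR 2.7.7a for alignment to GRCh38, and featureCounts gave the raw counts they deposited, from reads with 1 alignment. The deposited TPM values sum to about the same total in each library and came from RSEM 1.3.0. Versions are from those notes. The labels name a kit without strand information and the methods a strand-specific one, and the use of strand in counting is not stated, so that overlapping genes on opposite strands are uncertain. Exons of 19 of the 38 genes overlap those of a gene on the opposite strand and of 6 those of a gene on the same strand (GENCODE 44).

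The MAFG and GFP libraries of a line, 6 in all, were compared with edgeR 4.0.16 in R 4.3.3 (TMM, filterByExpr, quasi-likelihood F test, Benjamini-Hochberg adjustment over all tested genes). Differences between lines came from 1 model of all 18 libraries. SE is the log2 fold change divided by the square root of F. CPM are TMM-scaled within a line, levels between genes and lines are compared in TPM, and at most 3 counts in each library of a condition is called the floor. The fit was tested on simulated data. Alternatives used DESeq2 1.42.0, limma 3.58.1 on log2(TPM + 1) and log2(TPM + 0.1), other filters, the replicate number as a block, and leaving out each library. Named were all genes called in a line or a difference, their partner chains, those that passed without the fold limit, the untested genes and the up to 3 called genes of smallest adjusted p per list and line. The genes and lists were chosen with earlier results of these data known. Single values of 1 of the 38 genes and of 1 marker are not reported here, also in the plots, while counts and medians include both.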

Additional observations from a re-analysis of the deposited data

Results flagged for a closer look

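The results below are differences between 2 lines in the log2 fold change of MAFG over GFP that passed the test (edgeR quasi-likelihood contrast over 18 libraries, adjusted p of 0.05 or less and a difference above 1 on the log2 scale). Pairs of lines share a line, so that they are not independent of each other.

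WM164 minus SKMEL28 gave 2.13 for ITGA1, 2.23 for ITGA4, 2.26 for ITGA9, 2.93 for ITGA10, 8.596 for ITGA11, 1.25 for ITGB5 and 1.13 for LAMA5. ITGA4 and ITGB5 passed in opposite directions in the lines themselves. ITGA11 had 0 to 7 counts with GFP and 0 with MAFG in SKMEL28 cells, so that the size of its difference depends on the prior count. LAMA5 rests on a drop in SKMEL28 cells, and its difference fell to 0.92 or 0.94 without SKMEL28 GFP replicate 2 or MAFG replicate 3.

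WM164 minus A375 gave 3.24 for ITGA1 and 3.40 for ITGA11, and -3.54 for ITGA9, -4.59 for ITGB3, -3.28 for LAMA2 and -1.20 for LAMB3. ITGA9 was called higher in both lines, and its larger A375 value rests on 3, 1 and 6 counts in the GFP libraries. On the log2(TPM + 1) scale, which shrinks the change of low genes, its difference was 0.63. LAMA2 had 11 to 22 counts with GFP and 22 to 67 with MAFG in A375 cells. Its call was lost on the log2(TPM + 1) scale (-1.02) and the log2(TPM + 0.1) scale (-2.57). The LAMB3 call was lost without any 1 of 6 libraries (WM164 GFP replicate 2 or 3 or MAFG replicate 3, A375 GFP replicate 1 or 3 or MAFG replicate 2), with values from -1.19 to -1.09.

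SKMEL28 minus A375 gave 1.11 for ITGA1 and 5.95 for ITGB7, and -1.33 for ITGA4, -5.80 for ITGA9, -2.09 for ITGA10, -5.19 for ITGA11, -5.36 for ITGB3, -1.17 for ITGB5, -1.15 for ITGB8, -1.17 for LAMA5 and -2.13 for LAMB3. ITGB7 had 3, 0 and 0 counts with GFP and 9, 6 and 6 with MAFG in SKMEL28 cells, and 1, 7 and 14 with GFP and 0, 1 and 1 with MAFG in A375 cells. ITGA1 fell to 0.88 and LAMA5 to -0.97 without A375 MAFG replicate 1, the library that stood apart. The LAMA5 call was also lost without SKMEL28 GFP replicate 2 (-0.95) or MAFG replicate 1 (-1.07) or 3 (-0.97). The ITGB7 call was lost without any 1 of 8 libraries (5.07 to 6.05), which were all but A375 GFP replicate 1, A375 MAFG replicates 2 and 3 and SKMEL28 GFP replicate 1. The ITGA11 call was lost without SKMEL28 GFP replicate 3 (-3.78) or any 1 SKMEL28 MAFG library (-5.21 to -5.20), and the ITGA10 call without A375 GFP replicate 1 or 2, A375 MAFG replicate 2 or SKMEL28 GFP replicate 2 (-2.02 to -1.63).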

How the results depend on the processing

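The genes called within WM164 cells were 6 in each of the fits that left out 1 library. Leaving out 1 library gave 1 to 3 called genes in SKMEL28 and 2 to 3 in A375 cells, 6 to 8, 5 to 7 and 8 to 11 in the differences WM164 minus SKMEL28, WM164 minus A375 and SKMEL28 minus A375, and 19 to 22, 21 to 23 and 16 to 18 between GFP cells of A375 and WM164, A375 and SKMEL28, and WM164 and SKMEL28. Without the fold limit, 19 genes were called in WM164 and 16 in SKMEL28 cells, and 14 and 17 in the differences of SKMEL28 from WM164 and from A375. With at least 10 counts in every library, 1 was called in A375 cells (ITGA9 and ITGB3 were then not tested), 4, 2 and 6 in the differences and 13, 14 and 9 between GFP cells, as fewer genes were tested. On the log2(TPM + 1) scale, SKMEL28 and A375 cells had 1 each, SKMEL28 minus A375 had 4 and GFP cells of A375 against SKMEL28 had 13. On the log2(TPM + 0.1) scale the first 3 were 1, 1 and 5. On these scales the split of higher and lower calls was 6 and 0 or 7 and 0 in WM164 cells (5 and 1 before), 4 and 0 or 3 and 1 in WM164 minus A375 (2 and 4), 1 and 3 or 0 and 5 in SKMEL28 minus A375 (2 and 9), and 6 and 8 or 9 and 11 between GFP cells of WM164 and SKMEL28 (12 and 6). The TPM scales moved the median of all genes by 0.14 or 0.16 in WM164, -0.14 or -0.17 in SKMEL28 and -0.10 or -0.12 in A375 cells. LAMA2 was no longer called in WM164 cells (the cause was not tested), LAMA4 was called there in addition, and so was ITGA3 with 0.1 added. LAMB3 in SKMEL28 and ITGA9 and ITGB8 in A375 cells were not tested on these scales, since they did not reach 1 TPM in 3 libraries.

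Same-numbered GFP and MAFG libraries did not deviate together (correlations of -0.05 to 0.05), so that no pairing by number was seen. Whether same-numbered libraries were handled together is not stated. With the replicate number as a block, 6, 2 and 3 genes were called in WM164, SKMEL28 and A375 cells as without it, and LAMB3 was lost from WM164 minus A375 (-1.20). LAMA2 in SKMEL28 cells, at 2 to 21 counts, was reversed from -0.09 to 0.014 with the replicate block and ranged from -0.77 to 0.65 when 1 library was left out, turning positive (0.65, 0.02 and 0.28) without GFP replicate 3, MAFG replicate 2 or MAFG replicate 3. ITGA9 in WM164 minus A375 was reversed to 0.63 on the log2(TPM + 1) scale. Of the values of single genes under an alternative, 864 kept their direction and side of the thresholds, 56 lost the call, 11 gained it and 5 were reversed. These counts include the unchanged values read without the fold limit, which can only keep or gain a call. They leave out fits in which the gene was not tested. Genes under about 10 counts per library are limited by depth.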
